A study of Mus musculus with 22 samples.

Results

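The claudins described here were 10 genes, Cldn1, Cldn2, Cldn3, Cldn4, Cldn5, Cldn7, Cldn8, Cldn10, Cldn12 and Cldn14, taken by symbol from the 32858 genes of a mouse kidney count table. All 10 were listed and all 10 passed the filter on low counts that left 17131 genes to be tested. Levels are given as CPM, the read count of a gene divided by the depth of its library after scaling by trimmed-mean (TMM) factors.

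Claudins are four-pass membrane proteins that form the strands of the tight junction, the seal between neighbouring epithelial cells. Some of them build pores that let selected ions or water pass between the cells, and others close that route. Each nephron segment carries its own mixture, so that the proximal tubule is leaky and the collecting duct is tight.

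The study asked whether istradefylline (KW6002), an adenosine receptor antagonist, changes the kidney response to the anticancer drug cisplatin. Whole-kidney polyA RNA of male C57Bl6/J mice aged 8 to 10 weeks was sequenced in 22 libraries. Vehicle kidneys (n = 5) received neither drug, and KW6002 kidneys (n = 6) received 3 mg/kg KW6002 each day from day -5 to day 7. Cisplatin kidneys (n = 5) received 6 daily injections of 3 mg/kg cisplatin and were collected 72 hours after the last, and co-treated kidneys (n = 6) received both schedules. The vehicle was the KW6002 carrier, made of DMSO, cremophor and saline, and no transgene or mutation is named for any group. Nothing in the labels ties libraries to individual animals, so p-values measure the spread between these libraries.

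The libraries held 26471762 to 40510754 counts. The kidney label held in the markers: summed over 8 proximal tubule genes, vehicle libraries reached 19600 to 20500 CPM. The sample numbers in the labels ran in the 300s for 3 vehicle and 3 KW6002 libraries and in the 500s for the other 16, which included every cisplatin-treated kidney. What the numbering stands for is not stated. Vehicle replicates 1 and 2 stood apart with thick ascending limb marker sums of 6630 and 7260 CPM, against 9840 to 10500 in the other vehicle libraries. They also had higher sums of fat markers (749 and 1380 CPM, against 154 to 340) and macrophage markers (242 and 231 CPM, against 140 to 152). Their principal cell sums were the lowest of the group (478 and 442 CPM, against 586 to 717). KW6002 replicate 1 had the highest macrophage marker sum of its group (278 CPM, against 142 to 175). Its fat marker sum was also the highest there (595 CPM, against 65.2 to 334), and it was the lowest KW6002 library for Cldn7, Cldn8, Cldn10 and Cldn12. Co-treated replicate 1 stood apart with a urothelial marker sum of 53.8 CPM, against 13.4 to 26.1 in the other co-treated libraries. Its fat marker sum was also the highest of its group (374 CPM, against 40.8 to 210). Cisplatin replicate 5 stood apart with the lowest injured tubule marker sum of its group (1590 CPM, against 2470 to 2750) and the highest proximal tubule sum (5480 CPM, against 3460 to 4430). Values without such a library are given beside some, but not all, of the results where it was at the edge of its group.

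In cisplatin kidneys the claudin mixture changed in both directions. Cldn4, Cldn3, Cldn7 and Cldn1 rose, by 10.4-fold, 4.8-fold, 2.83-fold and 2.76-fold. Cldn10, Cldn8, Cldn2 and Cldn12 fell to 0.432, 0.682, 0.736 and 0.839 of the vehicle level, and Cldn5 and Cldn14 did not pass the test. These 4 higher and 4 lower members of 10 stand beside 34.6% and 35.9% of all genes tested that were called higher and lower at an adjusted p of 0.05 (70.5% in either direction). With cisplatin and KW6002 together, Cldn4, Cldn3, Cldn7 and Cldn1 were lower than with cisplatin alone, and Cldn10 was higher. KW6002 alone changed no claudin by this test.

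**Figure D1:**
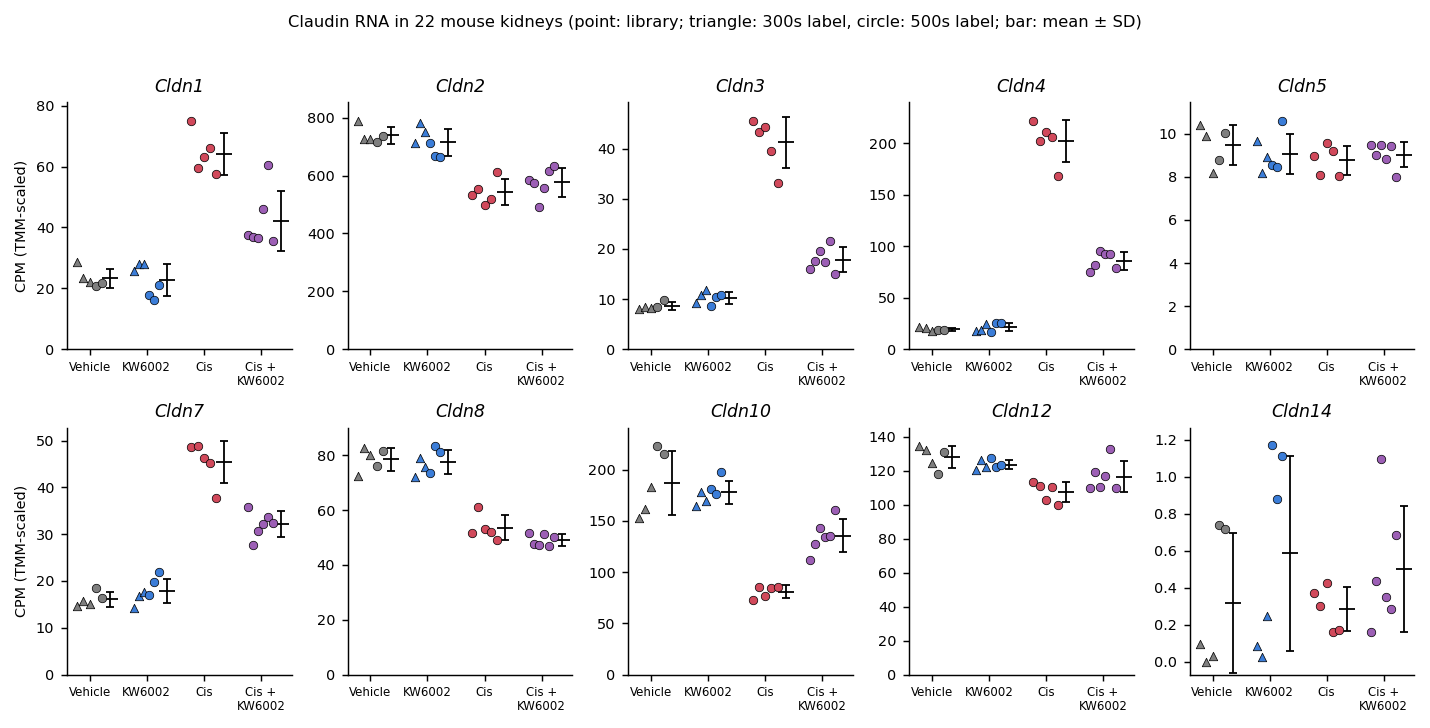
CPM of each claudin (vertical axis, linear, a separate scale in each panel) in every library of the 4 groups, with triangles for libraries numbered in the 300s, circles for those in the 500s and bars for mean ± SD. Cldn4 lies between 168 and 222 CPM in the cisplatin libraries and between 17.5 and 21.7 CPM in the vehicle libraries, with the co-treated libraries between the 2 sets.

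Cldn4, a claudin of the distal nephron and collecting duct known there for tightening the junction to sodium and for paracellular chloride transport, changed most among the members. Its gene lies at chr5:134945119-134946934 on the minus strand (mm10) and Cldn3 lies 39.3 kb away on the plus strand, with no annotated gene between them. Of the other nearby genes called in both comparisons, Abhd11os (log2 fold change 3.63 with cisplatin and -1.03 with KW6002 added) and 9030607J07Rik (1.72 and -0.81) moved the same way. Mettl27 (-0.81 and 0.43), Bud23 (-0.33 and 0.31) and Dnajc30 (-0.63 and 0.44) went the other way. The 300 bases around the start sites of Cldn4 and Cldn3, 250 before and 50 after, are shown because the pair moved in the same direction in every comparison where they were called. They come from RefSeq (GRCm38.p6), read 5′ to 3′ on the strand of the gene, from chr5:134946885-134947184 for Cldn4 and chr5:134985964-134986263 for Cldn3. Capitals mark matches to the AP-1 motif TGANTCA, searched on both strands.
Cldn4: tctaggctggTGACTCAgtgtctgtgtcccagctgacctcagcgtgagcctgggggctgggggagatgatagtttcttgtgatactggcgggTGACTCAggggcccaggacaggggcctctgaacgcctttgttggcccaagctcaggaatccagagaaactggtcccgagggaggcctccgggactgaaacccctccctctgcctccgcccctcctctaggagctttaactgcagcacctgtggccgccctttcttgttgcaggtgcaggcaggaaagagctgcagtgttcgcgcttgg
Cldn3: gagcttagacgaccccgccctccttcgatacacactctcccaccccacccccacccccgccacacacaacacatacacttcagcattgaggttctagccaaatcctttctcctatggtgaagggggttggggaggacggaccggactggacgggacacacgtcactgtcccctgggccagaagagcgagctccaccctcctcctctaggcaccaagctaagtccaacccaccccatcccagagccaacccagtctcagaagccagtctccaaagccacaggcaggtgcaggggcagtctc

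The Cldn4 window held 2 AP-1 matches and the Cldn3 window held 0. Of 32851 promoter windows of this length, 7.81% held at least 1 such match. RefSeq windows were found for 9 of the 10 members (15 windows in all), and none of the other members' windows held the motif. Cldn8 was the member with no entry. The Snail E-box CACCTG, the site of transcription factors that repress epithelial genes, was found in windows of Cldn4, Cldn3, Cldn7 and Cldn14, and 20.2% of all windows held it. The other letters searched were GTTAAT (HNF1), in windows of Cldn1, Cldn10 and Cldn14 and in 7.1% of all windows, and AACCNGTT (grainyhead-like), in the window of Cldn5 and in 2.09%. A match describes the letters of a window and says nothing of binding.

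Cldn4 stood at 21.7, 20.2, 17.5, 18.9 and 18.6 CPM in the 5 vehicle libraries. In the cisplatin libraries it stood at 222, 203, 211, 206 and 168 CPM, and in the co-treated libraries at 74.5 to 94.96 CPM with a median of 87.3. The 3 sets did not overlap, and within the cisplatin group replicate 5 was the lowest. The log2 fold change from vehicle was 3.38 ± 0.12 (SE) with cisplatin (adjusted p = 2.2e-16, edgeR quasi-likelihood test with Benjamini-Hochberg adjustment). From cisplatin alone to co-treatment it fell by 1.23 on the log2 scale (SE 0.10, adjusted p = 1.37e-09), and co-treated kidneys stayed above vehicle by 2.15 ± 0.11 (adjusted p = 5.05e-13). In bulk tissue, a change in the number of cells that express a gene and a change in RNA per cell cannot be told apart.

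Cldn3, a barrier-forming claudin of tubule epithelium, stood at 7.93, 8.46, 8.30, 8.49 and 9.83 CPM in vehicle libraries. With cisplatin it stood at 45.6, 43.5, 44.4, 39.6 and 33.2 CPM. The co-treated libraries ran from 15.1 to 21.6 CPM with a median of 17.5, so every one lay above every vehicle library and below every cisplatin library. Cldn3 rose by 2.26 ± 0.11 on the log2 scale with cisplatin (adjusted p = 1.64e-14). Under co-treatment it was lower than with cisplatin alone (log2 fold change -1.21 ± 0.09, adjusted p = 5.88e-10) and higher than vehicle (1.06 ± 0.10, adjusted p = 9.14e-09). The end of Cldn3 overlaps Wbscr25 on the other strand, as n-R5s51 does Cldn10, and whether the counting used strand is not stated in the sources used here, so those counts carry some uncertainty.

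Cldn7, found along the basolateral membrane as well as at the junction in the distal nephron and collecting duct, stood at 14.6, 15.6, 15.1, 18.5 and 16.4 CPM with vehicle. The cisplatin libraries stood at 48.7, 48.8, 46.3, 45.3 and 37.8 CPM, and the co-treated ones ran from 27.6 to 35.8 CPM with a median of 32.4. No library of one group reached the range of another among these 3 groups. It rose 2.83-fold with cisplatin (SE 0.10 on the log2 scale, adjusted p = 4.04e-12), and its log2 fold change was -0.50 ± 0.09 from cisplatin to co-treatment (adjusted p = 5.49e-05) and 1.00 ± 0.09 from vehicle to co-treatment (adjusted p = 6.13e-09).

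Cldn1, a sealing claudin that in the kidney is known from the parietal cells of the glomerulus, stood at 28.6, 23.4, 22.1, 20.7 and 21.6 CPM with vehicle and at 75.1, 59.5, 63.1, 66.0 and 57.6 CPM with cisplatin. The co-treated libraries ran from 35.4 to 60.4 CPM with a median of 37.1. Co-treated replicate 5, at 60.4 CPM, lay inside the cisplatin range, and the other 5 co-treated libraries lay below it. Cldn1 rose by 1.46 ± 0.16 with cisplatin on the log2 scale (adjusted p = 1.76e-08) and was 0.656 of the cisplatin level under co-treatment (log2 fold change -0.61 ± 0.14, adjusted p = 0.00102). Co-treated kidneys remained above vehicle by 0.85 ± 0.15 (adjusted p = 3.93e-05).

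The urothelium, the lining of the renal pelvis, also carries claudins such as Cldn3, Cldn4 and Cldn7, and its markers also rose from vehicle to cisplatin. Of 6 urothelial markers (Upk1a, Upk1b, Upk2, Upk3a, Upk3b and Krt5), 5 were called higher with cisplatin, beside 34.6% of all genes. None was at 0 throughout any group. Their summed level was 4.15 to 30.8 CPM with vehicle, 57.5 to 68.6 CPM with cisplatin and 13.4 to 53.8 CPM with both drugs. From cisplatin to co-treatment 5 of the 6 markers were called lower and 0 higher, beside 27.2% and 28.6% of all genes. Cldn3, Cldn4 and Cldn7 were also lower in that comparison. Between co-treated and vehicle kidneys 1 of the 6 markers was called higher, beside 29.8% of all genes, and Cldn3, Cldn4 and Cldn7 were higher. Co-treated replicate 1, which had the highest urothelial sum of its group, had the lowest Cldn4 of its group at 74.5 CPM and the highest Cldn7 at 35.8 CPM. Without that library the log2 fold change from cisplatin to co-treatment was -1.20 for Cldn4, -1.17 for Cldn3, -0.53 for Cldn7, -0.58 for Cldn1 and 0.79 for Cldn10. Cisplatin replicate 5 had the highest urothelial sum of its group, 68.6 CPM, and the lowest Cldn4, Cldn3 and Cldn7, beside its low injured tubule and high proximal tubule sums. Without it the log2 fold change from cisplatin to co-treatment was -1.29 for Cldn4, -1.27 for Cldn3 and -0.56 for Cldn7. Markers of principal cells of the collecting duct ran from 442 to 717 CPM with vehicle and from 662 to 947 CPM with cisplatin. Of these 7 markers, 2 were called higher and 2 lower, beside 34.6% and 35.9% of all genes. Markers of injured tubule ran from 84.6 to 98.7 CPM with vehicle, from 1590 to 2750 CPM with cisplatin and from 472 to 934 CPM with both drugs. With cisplatin 8 of 8 were called higher, beside 34.6% of all genes. From cisplatin to co-treatment 7 of the 8 were called lower and 0 higher, beside 27.2% and 28.6% of all genes. The part of these cell types in the claudin values was not tested.

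**Figure D2:**
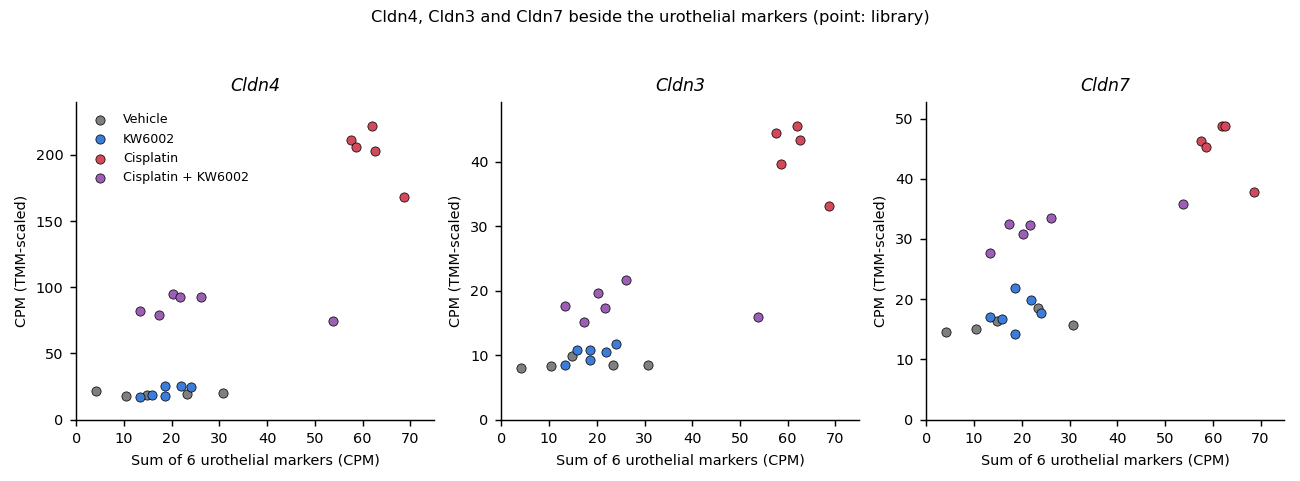
CPM of Cldn4, Cldn3 and Cldn7 (vertical axes) against the summed CPM of 6 urothelial markers (horizontal axes), a point for each of the 22 libraries, coloured by group. The co-treated library at a urothelial sum of 53.8 CPM has the lowest Cldn4 (74.5 CPM) and the highest Cldn7 (35.8 CPM) of the co-treated libraries, of which the others have sums of 13.4 to 26.1 CPM.

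Cldn10 gives rise to an anion pore in the proximal tubule and a cation pore in the thick ascending limb through different first exons, which a count per gene pools. It stood at 153, 161, 183, 223 and 215 CPM with vehicle and at 72.3, 85.2, 76.6, 84.9 and 85.5 CPM with cisplatin. The co-treated libraries ran from 112 to 161 CPM with a median of 135, all above the cisplatin libraries and in part inside the vehicle range. Cldn10 fell by 1.21 on the log2 scale with cisplatin (SE 0.10, adjusted p = 1.84e-10), was 1.67-fold higher with both drugs than with cisplatin alone (log2 fold change 0.74 ± 0.09, adjusted p = 6.39e-07) and stayed below vehicle (-0.47 ± 0.09, adjusted p = 0.000148). The 2 lowest vehicle values were replicates 1 and 2, those with low thick ascending limb markers, and the log2 fold change was -1.28 without replicate 1 and -1.26 without replicate 2. Among the libraries numbered in the 500s, where vehicle stood at 215 and 223 CPM, the fall with cisplatin was 1.44 (SE 0.10, adjusted p = 1.09e-09).

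Cldn2, the cation and water pore of the proximal tubule, was the most abundant member. It ran from 716 to 790.1 CPM with vehicle, from 499 to 614 CPM with cisplatin and from 492 to 634 CPM with both drugs. Both cisplatin-treated groups lay below vehicle and overlapped each other. The log2 fold change was -0.44 ± 0.07 with cisplatin (adjusted p = 3.91e-06) and -0.36 ± 0.06 with both drugs (adjusted p = 5.02e-05). The difference between the cisplatin-treated groups was 0.08, with a 95% interval of -0.05 to 0.22 (adjusted p = 0.281). The summed proximal tubule markers were 3460 to 5480 CPM with cisplatin and 8180 to 12200 CPM with both drugs, and their part in Cldn2 was not tested.

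Cldn12, linked to paracellular calcium in the proximal tubule, ran from 118 to 135 CPM with vehicle, up to 113 CPM with cisplatin (median 110.4) and from 109.5 to 133 CPM with both drugs. Every cisplatin library lay below every vehicle library, and the co-treated libraries overlapped both. The log2 fold change with cisplatin was -0.25 ± 0.05 (adjusted p = 0.000178). It shrank to -0.04 (adjusted p = 0.583) when libraries were scaled by their totals alone, a scaling that moved the median of all genes to 0.20 in this comparison and to 0.16 between co-treated and vehicle kidneys. Between co-treated and vehicle kidneys Cldn12 stood at -0.14 ± 0.05 (adjusted p = 0.0223), and total-only scaling turned it to 0.02 (adjusted p = 0.768). That call was also lost with the number series as a covariate (-0.13 ± 0.06, adjusted p = 0.0759) and among libraries numbered in the 500s (-0.10 ± 0.07, adjusted p = 0.286). Co-treated kidneys stood at 0.12 relative to cisplatin alone (95% interval 0.01 to 0.22, adjusted p = 0.0547).

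Cldn8, the partner of Cldn4 in the collecting duct, fell where Cldn4 rose. It ran from 72.2 to 82.5 CPM with vehicle, from 49.0 to 61.1 CPM with cisplatin and from 46.7 to 51.6 CPM with both drugs. Both cisplatin-treated groups lay below vehicle without overlap. The log2 fold change was -0.55 ± 0.06 with cisplatin (adjusted p = 8.08e-09) and -0.68 ± 0.05 with both drugs (adjusted p = 4.23e-10). Between cisplatin alone and both drugs it stood at -0.12 (95% interval -0.23 to -0.01, adjusted p = 0.0548). Under other scalings that difference was called, at -0.13 by relative log expression (adjusted p = 0.0402) and -0.18 by totals alone (adjusted p = 0.0051). Summed markers of the distal convoluted tubule and of intercalated cells were also lower with cisplatin. Those of the distal convoluted tubule were 2410 to 2670 CPM with vehicle, 142 to 237 with cisplatin and 445 to 765 with both drugs. Those of intercalated cells were 391 to 480, 206 to 271 and 315 to 417 CPM in that order. The summed markers of collecting duct principal cells were 442 to 717, 662 to 947 and 578 to 960 CPM. Of these 7 markers, 2 were called higher and 2 lower with cisplatin, beside 34.6% and 35.9% of all genes. The part of these cells in Cldn8 was not tested.

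Cldn5, the claudin of endothelial cells, passed the test in none of the comparisons. Its values ran from 8.20 to 10.4 CPM with vehicle, from 8.04 to 9.57 CPM with cisplatin and from 7.99 to 9.502 CPM with both drugs, and the groups overlapped. The log2 difference between cisplatin and vehicle was -0.11 with a 95% interval of -0.28 to 0.06 (adjusted p = 0.25). Of 8 endothelial markers, 2 were called higher and 3 lower in cisplatin kidneys, beside 34.6% and 35.9% of all genes. Their median log2 fold change was -0.06.

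Cldn14, which in the thick ascending limb blocks the calcium pore made by Cldn16 and Cldn19, was the only member near the detection limit, with 0 to 32 counts per library. In the fit of all libraries it stood at -0.16 ± 0.82 with cisplatin (adjusted p = 0.87). The 3 vehicle libraries numbered in the 300s held 3, 0 and 1 counts and the 2 in the 500s held 21 and 22. The KW6002 libraries were split in the same way, with 1 to 7 counts in the 300s and 25 to 31 in the 500s. Within the 500s, vehicle stood at 0.74 and 0.716 CPM and cisplatin at 0.161 to 0.426 CPM, without overlap. There the log2 fold change was -1.33 ± 0.51 (adjusted p = 0.0313), and in a fit of all libraries with the number series as a covariate it was -1.25 ± 0.52 (adjusted p = 0.0368). That fit put the 500s above the 300s by 3.44 ± 0.50 for Cldn14 (adjusted p = 0.000125), by 0.24 ± 0.08 for Cldn10 (adjusted p = 0.0442) and below them for Cldn1 (-0.41 ± 0.13, adjusted p = 0.0368), and it called 11.5% of all genes. The other 7 members were not called between the series. Gm49618 overlaps Cldn14 on the same strand, so its reads can be uncertain.

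Without overlap between groups stood 8 of the 10 members in the comparison of cisplatin with vehicle, 4 higher and 4 lower, beside 27.4% and 27.9% of all genes tested (55.3% in either direction). At the stricter rule of an adjusted p of 0.01 and a log2 fold change beyond 1, 4 members were higher and 1, Cldn10, was lower, beside 12.1% of all genes in each direction (24.1% in all). The median log2 fold change was -0.14 over the 10 members and -0.01 over all genes.

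Co-treatment was set against cisplatin alone to ask what KW6002 adds. Cldn10 was the 1 member higher and 4 were lower, beside 28.6% and 27.2% of all genes tested (55.8% in all), and 5 were not called. Among the 5 called, Cldn1 had groups that overlapped. Without overlap stood 4 of the 10 members, beside 37.8% of all genes. The median log2 fold change of the members was -0.04, and that of all genes 0.01. At the stricter rule, 0 members were higher and 2 (Cldn3 and Cldn4) were lower, beside 4.65% and 5.66% of all genes (10.3% in all).

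Co-treated kidneys differed from vehicle in 8 of 10 members, 4 higher and 4 lower, beside 29.8% and 29.9% of all genes tested (59.7% in all). The same 4 members as with cisplatin alone (Cldn1, Cldn3, Cldn4 and Cldn7) were higher, and Cldn2, Cldn8, Cldn10 and Cldn12 were lower. The comparisons of cisplatin and of co-treatment with vehicle share the vehicle libraries, so this likeness is not independent. Of the 8, Cldn10 and Cldn12 overlapped vehicle. Without overlap stood 6 of the 10 members, beside 37.5% of all genes. At the stricter rule 3 members were higher (Cldn3, Cldn4 and Cldn7) and 0 lower, beside 5.83% and 7.59% of all genes (13.4% in all).

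KW6002 alone was set against vehicle in kidneys without cisplatin. By the edgeR test 0 of 10 claudins were called, beside 0.0175% of all genes tested, and DESeq2 also called 0 claudins. At an unadjusted p under 0.05 there was 1 of the 10 members, Cldn3, beside 11.3% of all genes. Outside the 10, Cldn15 was also under it by the edgeR test (log2 fold change 0.23 ± 0.09, unadjusted p = 0.0151, adjusted p = 0.331). Cldn3 ran from 8.53 to 11.7 CPM with KW6002 against 7.93 to 9.83 CPM with vehicle, and the groups overlapped (log2 fold change 0.25 ± 0.10, 95% interval 0.04 to 0.47, adjusted p = 0.345). Cldn4 ran from 17.1 to 25.5 CPM with KW6002, Cldn7 from 14.3 to 21.8, Cldn1 from 16.1 to 27.9 and Cldn10 from 164 to 197, each overlapping vehicle. The intervals of the other members reached at most 0.37 in size, apart from Cldn14 with -0.78 to 2.36.

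**Figure D3:**
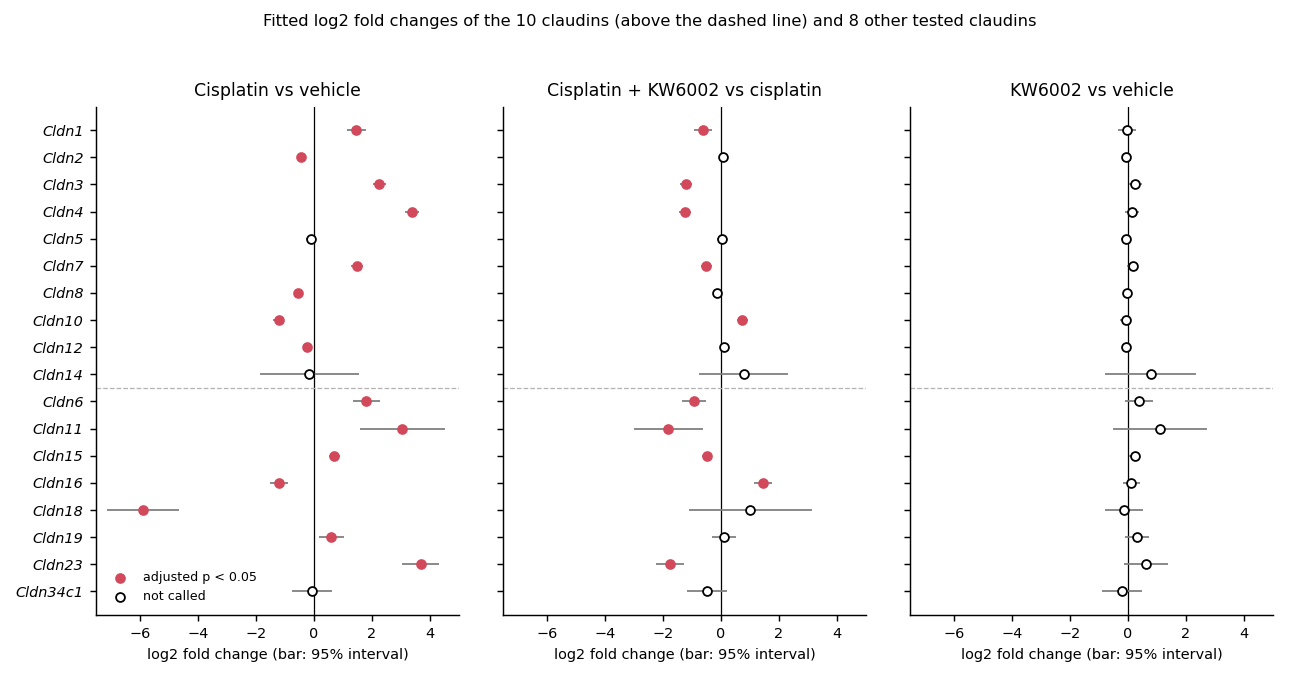
Fitted log2 fold change (horizontal axis, bars for 95% intervals) of the 10 claudins and of 8 other claudins, in 3 comparisons, with filled points at an adjusted p under 0.05. Cldn4 lies at 3.38 with cisplatin and at -1.23 when KW6002 is added, and no point is filled for KW6002 alone.

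Whether KW6002 acted differently with and without cisplatin was tested as an interaction. It was negative for Cldn3 (-1.46 ± 0.14 on the log2 scale, adjusted p = 4.08e-08), Cldn4 (-1.37 ± 0.15, adjusted p = 2.49e-07), Cldn7 (-0.66 ± 0.13, adjusted p = 0.000314) and Cldn1 (-0.58 ± 0.21, adjusted p = 0.0286). It was positive for Cldn10 (0.82 ± 0.13, adjusted p = 3.15e-05). These 4 negative and 1 positive calls of 10 members stand beside 19.9% and 22.8% of all genes tested (42.7% in all). At the stricter rule, Cldn3 and Cldn4 remained, both negative, beside 4.33% of all genes with a negative and 4.24% with a positive value (8.58% in all). The call of Cldn1 was lost among libraries numbered in the 500s (-0.40 ± 0.23, adjusted p = 0.195), where its KW6002 values were 16.1 to 21.1 CPM against 25.6 to 27.9 CPM in the 300s. It was also lost without KW6002 replicate 2, KW6002 replicate 3, vehicle replicate 4 or cisplatin replicate 1, with log2 values of -0.51, -0.51, -0.54 and -0.52.

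Levels of different genes can be compared only per length, so CPM were divided by the kilobases of annotated exon. On that scale the members summed to 396 ± 9.57 CPM per kb with vehicle (SD, n = 5), 386 ± 12.8 with KW6002 (SD, n = 6), 430 ± 11.3 with cisplatin (SD, n = 5) and 367 ± 18.4 with both drugs (SD, n = 6). Cldn2 made up 56.2 ± 2.32% of that sum with vehicle, 38.1 ± 3.49% with cisplatin and 47.2 ± 2.72% with both drugs. The share of Cldn4 was 2.7 ± 0.23% with vehicle, 25.9 ± 2.28% with cisplatin and 12.9 ± 1.43% with both drugs. In neither case did the vehicle and cisplatin ranges overlap.

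With vehicle the order from highest to lowest level per kb was Cldn2, Cldn10, Cldn8, Cldn12, Cldn4, Cldn7, Cldn3, Cldn5, Cldn1 and Cldn14. The ranges of Cldn8 and Cldn12 overlapped, and so did those of each neighbouring pair from Cldn7 down to Cldn1. KW6002 kidneys had the same order, and there the ranges of Cldn4 and Cldn7, Cldn7 and Cldn3, and Cldn3 and Cldn5 overlapped. With cisplatin the order was Cldn2, Cldn4, Cldn3, Cldn10, Cldn12, Cldn7, Cldn8, Cldn1, Cldn5 and Cldn14. Here Cldn4 had moved from position 5 to position 2, at 111 ± 11.2 CPM per kb against 10.7 ± 0.88 with vehicle, and the pairs Cldn3 with Cldn10, Cldn12 with Cldn7 and Cldn7 with Cldn8 overlapped. With both drugs the order was Cldn2, Cldn10, Cldn4, Cldn12, Cldn8, Cldn7, Cldn3, Cldn1, Cldn5 and Cldn14. The ranges of Cldn10 and Cldn4 overlapped, though Cldn10 was above Cldn4 in 6 of 6 libraries, and so did those of Cldn7 and Cldn3 and of Cldn3 and Cldn1. Divided by coding length in place of exon length, the sum of the members was 1750 CPM per kb with vehicle and 1700 with cisplatin, so the order of these groups turned.

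**Figure D4:**
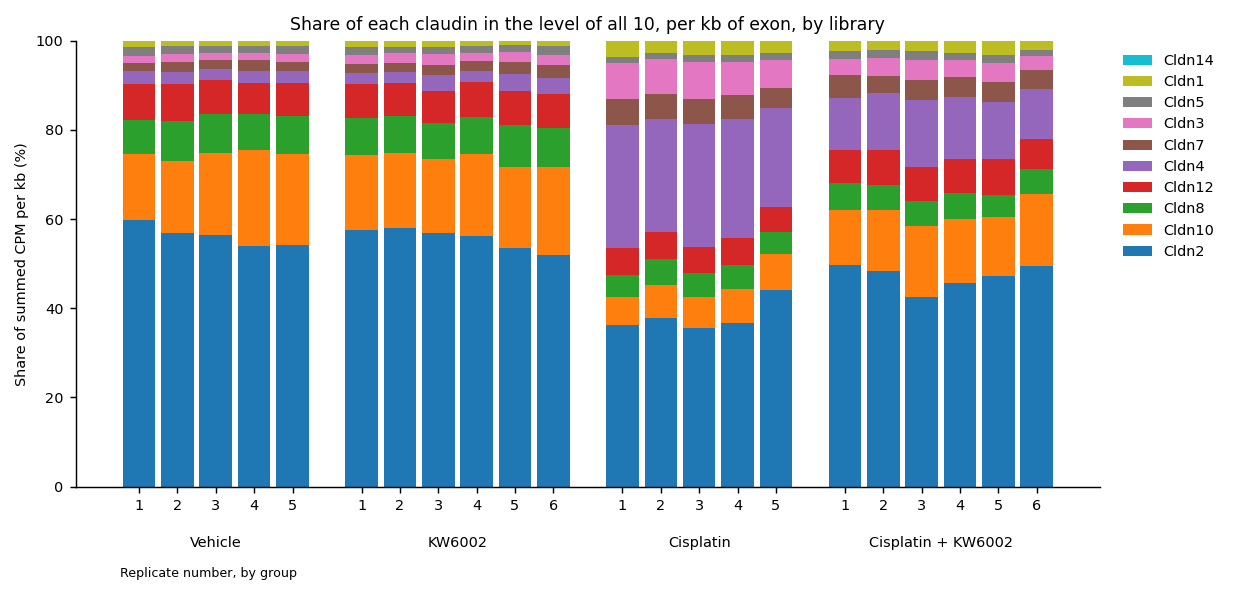
Share of each claudin in the summed CPM per kb of the 10 (vertical axis, percent), stacked for each of the 22 libraries by group and replicate. The Cldn4 band takes 22.2 to 27.6% in the cisplatin libraries, 11.2 to 15% in the co-treated ones and 2.49 to 3% with vehicle.

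Of 24 other claudin genes looked for, 15 were in the table and 8 passed the filter on low counts. With cisplatin, 5 of these 8 were called higher and 2 lower, beside 34.6% and 35.9% of all genes. The thick ascending limb pair that makes the divalent cation pore, Cldn16 and Cldn19, split. Cldn16 ran from 9.74 to 14.2 CPM with vehicle, from 4.24 to 5.69 CPM with cisplatin and from 9.66 to 18.5 CPM with both drugs, so that only the cisplatin libraries stood apart. It fell by 1.20 on the log2 scale with cisplatin (SE 0.15, adjusted p = 3.43e-07) and was higher by 1.44 ± 0.15 with both drugs than with cisplatin alone (adjusted p = 3.49e-08). Between co-treated and vehicle kidneys it stood at 0.25 ± 0.14 (adjusted p = 0.141), and at 0.33 (adjusted p = 0.0381) without co-treated replicate 1. Cldn19 stood at 41.2 ± 16.1 CPM with vehicle (SD, n = 5) and 62.8 ± 7.65 CPM with cisplatin (SD, n = 5), with overlap (log2 fold change 0.61 ± 0.21, adjusted p = 0.0136), and between the cisplatin-treated groups it differed by 0.10 (95% interval -0.31 to 0.51). Vehicle replicates 1 and 2, low in thick ascending limb markers, were the lowest for Cldn19 at 26.6 and 25.6 CPM. Its log2 fold change with cisplatin was 0.48 without either one (adjusted p = 0.0459 and 0.0453), and among libraries numbered in the 500s it was 0.50 ± 0.19 (adjusted p = 0.0286). The summed thick ascending limb markers were 6630 to 10500 CPM with vehicle, 2130 to 2460 CPM with cisplatin and 2650 to 4860 CPM with both drugs, and their part in either gene was not tested.

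Cldn16 and Cldn1 lie 91.3 kb apart on chromosome 16 and moved in opposite directions with cisplatin. Cldn15, a cation pore known from the gut, rose by 0.71 ± 0.09 (adjusted p = 2.78e-07) and was lower by 0.48 with both drugs (log2 fold change -0.48 ± 0.09, adjusted p = 5.23e-05). Among the rarer ones, Cldn6, a claudin of embryonic epithelium, went from 0.877 ± 0.285 CPM with vehicle (SD, n = 5) to 3.09 ± 0.313 CPM with cisplatin (SD, n = 5; log2 fold change 1.81 ± 0.22, adjusted p = 2.04e-07). Cldn23 went from 0.183 ± 0.104 to 2.37 ± 0.292 CPM (3.69 ± 0.31, adjusted p = 3.25e-10). It held only 3 to 10 counts per vehicle library, and 72 to 104 per cisplatin library. With both drugs, Cldn6 and Cldn23 were lower than with cisplatin alone by log2 fold changes of -0.94 ± 0.20 (adjusted p = 0.000378) and -1.76 ± 0.24 (adjusted p = 1.63e-06).

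Cldn11, known from myelin and the testis, held 1 to 10 counts per vehicle library and 27 to 71 per cisplatin library (log2 fold change 3.06 ± 0.70, adjusted p = 0.000522). In co-treated libraries it held 1 to 7 counts except in replicate 1, with 56. The log2 fold change from cisplatin to both drugs was -1.82 ± 0.57 (adjusted p = 0.00981) with that library and -3.30 (adjusted p = 2.83e-06) without it. Cldn18, the claudin of stomach and lung epithelium, had 122 counts over the vehicle libraries, 2 over the cisplatin libraries and 5 over the co-treated libraries. Scaled to depth, cisplatin kidneys had 1.26% of the vehicle level (95% exact interval 0.151 to 4.67%) and co-treated kidneys 3.01% (0.961 to 7.23%). These intervals cover counting error only. Gm16004 and Gm12927 overlap Cldn18 and Cldn19 on the other strand. Cldn34c1 was not called (log2 fold change -0.07 ± 0.34, adjusted p = 0.866).

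Claudins are held at the junction by other membrane proteins and by scaffolds. Of 11 tight junction membrane proteins, 7 were called higher with cisplatin and 2 lower, beside 34.6% and 35.9% of all genes, with a median log2 fold change of 0.28 against -0.01 over all genes. The highest were Jam2, a junctional adhesion molecule (0.87 ± 0.15, adjusted p = 1.7e-05), Lsr, a protein of tricellular junctions (0.85 ± 0.06, adjusted p = 1.75e-11), and Cxadr, the coxsackie and adenovirus receptor (0.80 ± 0.08, adjusted p = 7.97e-09). The 2 lower ones were Ildr2, a tricellular protein (-1.15 ± 0.11, adjusted p = 1.94e-09), and Jam3 (-0.86 ± 0.15, adjusted p = 1.88e-05). With KW6002 added, 1 was higher and 4 were lower, beside 28.6% and 27.2% of all genes. The higher one was Ildr2 (1.22 ± 0.10, adjusted p = 2.01e-09), and the lower ones included Jam2 (-0.98 ± 0.14, adjusted p = 3.32e-06), Cxadr (-0.53 ± 0.08, adjusted p = 4.02e-06) and F11r, also a junctional adhesion molecule (-0.37 ± 0.04, adjusted p = 1.76e-07).

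With cisplatin, 6 of 12 scaffold genes rose and 5 fell, with a median of 0.10, beside 70.5% of all genes called in either direction. The zonula occludens gene Tjp1 (0.74 ± 0.05, adjusted p = 9.83e-12), whose product ties claudins to actin, rose, and so did Cgn, which encodes cingulin (1.18 ± 0.12, adjusted p = 8.83e-09). Magi1 (-1.02 ± 0.07, adjusted p = 4.63e-12), Patj (-0.69 ± 0.05, adjusted p = 1.22e-10) and Cgnl1 (-0.57 ± 0.09, adjusted p = 5.55e-06) fell. Adding KW6002 gave 5 higher and 6 lower, beside 55.8% of all genes called. Magi1 (0.71 ± 0.06, adjusted p = 4.99e-09), Mpdz (0.37 ± 0.06, adjusted p = 1.21e-05) and Patj (0.27 ± 0.05, adjusted p = 0.000157) were the highest, and Cgn (-0.73 ± 0.11, adjusted p = 9.34e-06), Tjp3 (-0.63 ± 0.06, adjusted p = 3.17e-08) and Pard6b (-0.63 ± 0.07, adjusted p = 2.94e-07) the lowest.

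**Figure D5:**
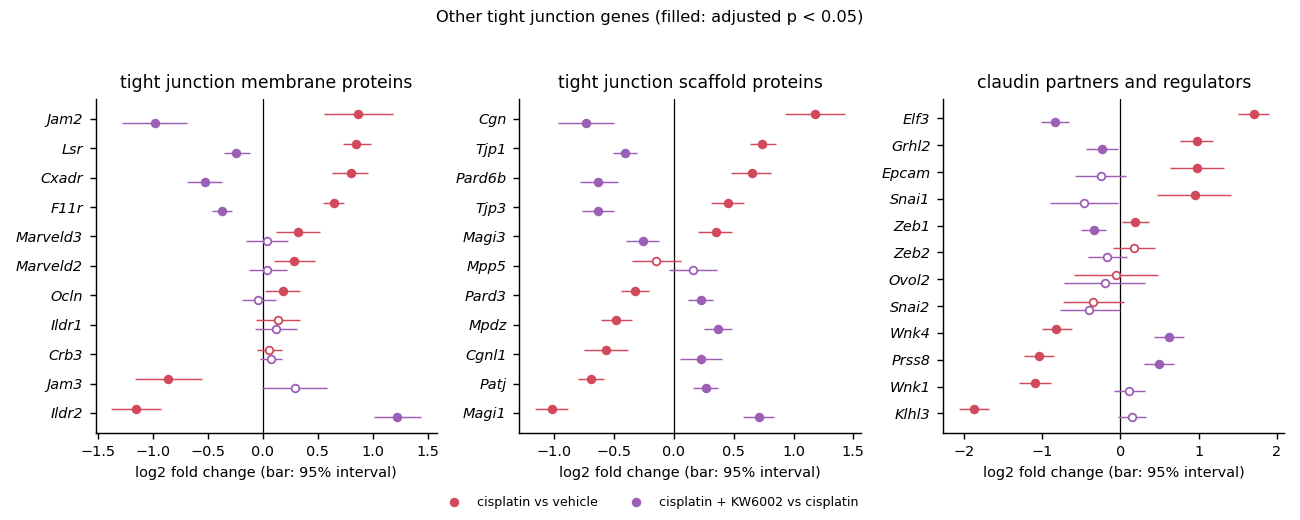
Fitted log2 fold change (horizontal axis, bars for 95% intervals) of the membrane proteins, scaffold proteins and partners or regulators of claudins reported here, for cisplatin against vehicle and for co-treatment against cisplatin, with filled points at an adjusted p under 0.05. Cgn lies at 1.18 with cisplatin and at -0.73 when KW6002 is added, and Magi1 at -1.02 and 0.71.

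Among 13 partners and regulators of claudins, 6 were called higher and 4 lower in cisplatin kidneys, a share near the 70.5% of all genes called, with a median of 0.17. Epcam, a binding partner that stabilises claudin-7, rose by 0.98 ± 0.16 (adjusted p = 1.49e-05). Elf3, an epithelial transcription factor known to activate Cldn7, rose by 1.71 ± 0.09 (adjusted p = 2.45e-13). Klhl3, the ubiquitin ligase adaptor that targets claudin-8, had a log2 fold change of -1.87 ± 0.09 (adjusted p = 5.08e-14), the kinase Wnk1 one of -1.09 ± 0.10 (adjusted p = 1.2e-09) and the membrane protease Prss8 one of -1.04 ± 0.10 (adjusted p = 1.51e-09). With KW6002 added, 2 were higher and 4 lower, beside 55.8% of all genes called. The higher ones were Wnk4 (0.62 ± 0.09, adjusted p = 4.2e-06) and Prss8 (0.49 ± 0.09, adjusted p = 9.65e-05). The 4 lower ones included Elf3 (-0.84 ± 0.09, adjusted p = 3.21e-08) and the repressor Zeb1 (-0.34 ± 0.08, adjusted p = 0.000808).

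The genes nearest in pattern were found by Euclidean distance between the fitted log2 fold changes of KW6002, cisplatin and co-treatment from vehicle, over the 4 groups and 22 libraries. For Cldn4 they were Krt19, a simple-epithelium keratin (3.45 with cisplatin and 2.28 with both drugs, distance 0.195), and Igsf9b (3.56 and 2.26, distance 0.213). For Cldn3 they were Col1a1, a fibrillar collagen (2.26 and 0.91, distance 0.151), and Nbl1 (2.18 and 1.02, distance 0.154). Cldn7 lay nearest Lama5, a laminin chain (distance 0.0801), and Mal2 (distance 0.104), and Cldn1 nearest Spry1 (distance 0.035) and Mrpl33 (distance 0.0797). Cldn10 lay nearest Tmem174 (distance 0.0433) and Scrn2 (distance 0.0453).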

How the data were processed

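RNA was measured in 22 mouse kidney libraries. Per the labels and the study's methods, polyA libraries were stranded, reads were made with bcl2fastq 2.17.1.14, aligned to mm10 with STAR and counted per gene with HTSeq 0.6.1p1, and the authors deposited raw whole-number counts. Use of strand in counting is not stated in the sources used here. A further 66 empty, unnamed columns were not used. Symbols, positions and exon lengths came from GENCODE M21 (GRCm38, the assembly of mm10), and 32824 of 32858 identifiers matched.

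Samples were grouped by title. Genes were kept by edgeR's filter (17131 genes, 99.95% of counts), scaled by TMM and tested with the edgeR 4.0.16 quasi-likelihood test (R 4.3.3) over all 4 groups, with Benjamini-Hochberg adjustment over all genes and a threshold of 0.05. The script was tested on simulated data. Depth was 26471762 to 40510754 counts. Alternatives were DESeq2 1.42.0, other scalings and filters, only the groups compared, a replicate block, the label number series, a stricter threshold, each library left out, and coding length. Members and gene lists were chosen with earlier results of these data known. Named were all members, every other tested claudin, up to 3 genes in each direction of each junction list whose mean log2 CPM was 0 or more, and the 2 non-claudin genes (mean log2 CPM 3 or more) nearest each member past the stricter threshold. A few genes of the junction lists enter the counts and medians but are not reported here by name. Same-numbered libraries of different groups did not all deviate together (31 pairs, r from -0.175 to 0.405, median 0.00846, 7 above 0.1, of which 4 were among the 5 pairs of vehicle with KW6002), so the numbers were not taken to pair the samples.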

Additional observations from a re-analysis of the deposited data

Results flagged for a closer look

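One library stood apart from the rest of its group by Dixon's test, vehicle replicate 1 for Cldn2 at 790 CPM, where the other vehicle libraries lay between 716 and 737 CPM. This was 1 of 40 combinations of member and group screened, and chance gives about 1 in 20.

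The effect of KW6002 differed between kidneys with and without cisplatin (interaction test, edgeR with Benjamini-Hochberg adjustment) for 10 of the 18 claudins tested, beside 42.7% of all genes. The difference in log2 fold change was -0.58 for Cldn1 (adjusted p = 0.0286), -1.46 for Cldn3 (adjusted p = 4.08e-08), -1.37 for Cldn4 (adjusted p = 2.49e-07), -0.66 for Cldn7 (adjusted p = 0.000314) and 0.82 for Cldn10 (adjusted p = 3.15e-05). Among claudins outside the 10 it was -1.31 for Cldn6 (adjusted p = 0.00144), -2.93 for Cldn11 (adjusted p = 0.0183), -0.71 for Cldn15 (adjusted p = 7.06e-05), 1.32 for Cldn16 (adjusted p = 2.16e-05) and -2.40 for Cldn23 (adjusted p = 0.000133). For Cldn11 the value moved to -4.41 without co-treated replicate 1, which held 56 of its counts, and the call was lost among libraries numbered in the 500s.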

How the results depend on the processing

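Of 50 results on members (10 claudins in 5 comparisons), 43 kept their call at the threshold of 0.05 under every alternative fit, scaling, filter and left-out library in which the gene was tested. Cldn14 did not pass the filter of at least 10 counts in every library, so it was not tested there. Under the stricter threshold the count of members called was 5 for cisplatin against vehicle, 2 for co-treatment against cisplatin, 3 for co-treatment against vehicle and 2 for the interaction. The shares of all genes were 24.1, 10.3, 13.4 and 8.58% in that order. Leaving out each library in turn gave 8 to 8, 5 to 7, 7 to 8 and 4 to 6 calls in the same order, and 0 to 0 for KW6002 alone. In the fit of all libraries 70.5, 55.8, 59.7 and 42.7% of all genes were called at 0.05 in that order. DESeq2 called 8, 5, 8 and 5 members in that order, where it called 12958, 9776, 10645 and 7457 genes in all. For KW6002 against vehicle it called 0 members and 99 genes in all. The fit of only the groups compared was not run for the interaction, which needs all 4.

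The replicate block gave 8, 5, 8 and 5 calls in that order and 0 for KW6002 alone, the same counts as without the block, for numbers that the check of pairing did not take to pair the samples. Shares of all genes called are not given for the block or the left-out libraries.

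Scaling by library totals alone turned Cldn12 between co-treated and vehicle kidneys to 0.02, and the summed CPM per kb to 370 with vehicle, 365 with KW6002 and 468 with cisplatin. With coding length the sums were 1750, 1710, 1700 and 1560 for vehicle, KW6002, cisplatin and both drugs. The share of Cldn2 was then 61.1, 60.8, 46.3 and 53.6% in that order, and the share of Cldn4 1.76, 2, 18.9 and 8.78%.

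Between co-treatment and cisplatin, Cldn8 was called without co-treated replicates 1 (adjusted p = 0.0421) and 4 (0.0482) or cisplatin replicate 5 (0.0227). It was also called with scaling by relative log expression (0.0402), by library totals alone (0.0051) and with at least 10 counts in every library (0.0305). In the same comparison Cldn12 was called without vehicle replicate 4 (0.0452), cisplatin replicate 1 (0.0398) or co-treated replicates 1 (0.0345), 3 (0.0392) and 6 (0.0426). Between co-treatment and vehicle, the call of Cldn12 was lost without vehicle replicates 1 (0.0637) and 2 (0.0532) or co-treated replicates 1 (0.0518) and 3 (0.0502), with the label series as a covariate (0.0759), in the 500s alone (0.286), with no filter (0.0752) and with only the groups compared (0.0534). The cause of these changes was not tested. Depth limits Cldn14, with at most 32 counts in a library.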
